A study of Mus musculus with 20 samples.

Results

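Immune cells of the fetal mouse gonad were the cells that the authors' annotation names Immune, and they numbered 321 of 94705 cells (0.339%). The other 94384 cells of the same libraries served for comparison. The annotation came from a clustering of all cells on their gene expression, and 1 of its 43 clusters held these cells, so their difference from other cells is described without a test. Single cells were captured in droplets from XX and XY embryos of 5 stages, E10.5 and E11.5, then E12.5 and E13.5, and last E16.5, with 2 libraries for each sex and stage and 20 in all. In every group CD-1 outbred females had been mated with males heterozygous for Tg(Nr5a1-GFP), a reporter that marks somatic cells of the genital ridge and served to find the ridge at dissection. The mesonephros was included in the first 2 stages and left out of the later 3. No library date was shared by different stages. Stage and date therefore cannot be told apart, nor, between the second and the third stage, the tissue taken.

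Macrophages of the embryo arise first from the yolk sac and later also from monocytes of the fetal liver. They depend on the receptor Csf1r, engulf dying cells, digest them in lysosomes and mark targets with complement C1q. In the fetal testis they are known for clearing misplaced cells and for a part in the growth of vessels and cords. Neutrophils, mast cells, innate lymphoid cells and megakaryocytes also belong to the blood lineages that the label can hold.

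A library held 3 to 32 immune cells, and 19 of 20 libraries held at least 5. Their median depth was 18565 UMIs (counted molecules), against 16541 for the other cells, and the median number of genes was 3915. Depth fell with stage in both, from a median of 48150.5 UMIs at E10.5 to 11579.5 at E16.5 for immune cells and from 24069 to 10007 for the others. In each of the 10 groups of sex and stage, every gene with any UMI had one in at least 20 cells, and the remaining genes stood at 0 in all cells of the group. A 0 of such a gene is no measurement, and the values below are of genes listed in every group (18256 of 26397) unless the number of groups is given. Of the immune cells, 35 shared a barcode with a cell of another library, none of them with an immune cell, and 10 were called as doublets.

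The labelled cells were described with Ptprc (CD45, a phosphatase of blood cells), Csf1r, Adgre1 (the macrophage protein F4/80) and the chemokine receptor Cx3cr1. As the label was itself made from expression and known markers, this is no separate check of it. Adgre1 was listed in 8 groups and Ptprc in 9, and 7 groups listed all 4 genes. Of the 242 immune cells in those 7 groups, 115 held UMIs of all 4, 166 of at least 3, and 24 of none. Of the other cells of the series, 1278 (1.35%) held at least 1 of the 4 and 10 held at least 3. Csf1r was found in 236 of 321 immune cells (73.5%) and in 0.779% of the others. Spi1, the transcription factor PU.1 of blood cells, was found in 90.3% and 0.346%.

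Among genes of at least 100 CPM (UMIs of a gene per 1e+06 UMIs) in the summed immune cells, the 20 with the highest ratio to the other cells were mostly of neutrophils or of macrophages. The neutrophil genes included Stfa1, S100a8, S100a9, Ngp, Camp and Ltf, each listed in only 2 or 3 groups. Of the macrophage genes, the chemokines Ccl3 and Ccl4 stood at 1279 and 1009 CPM against 0.597 and 0.536 in the other cells. C1qb and C1qc, chains of C1q, stood at 1009 and 843 CPM against 0.651 and 0.561. Cx3cr1 reached 471 CPM against 0.32. Cd53, a tetraspanin of leukocytes, was found in 266 immune cells (82.9%) and in 0.158% of the others, C1qb in 204 (63.6% and 0.859%).

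The bases upstream of 3 of these genes are shown because each marks a group described here, C1qb macrophages, Cd53 leukocytes at large and Ltf neutrophils. They are RefSeq promoter sequences of GRCm38.p6, 5′ to 3′ on the strand of the gene, cut where the annotated gene begins. Capitals mark GAGGAA, a core bound by PU.1 and other ETS factors, or its reverse complement TTCCTC, and in Ltf also TTGGGCAA, a match to the reverse complement of the C/EBP-type TTGCNNAA.
C1qb, chr4:136886201-136886450, minus strand: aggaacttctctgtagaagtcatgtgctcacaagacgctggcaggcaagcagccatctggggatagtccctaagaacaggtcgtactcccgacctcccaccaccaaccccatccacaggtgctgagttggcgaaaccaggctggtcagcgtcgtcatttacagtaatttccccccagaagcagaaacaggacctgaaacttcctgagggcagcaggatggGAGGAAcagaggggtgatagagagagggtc
Cd53, chr3:106790150-106790399, minus strand: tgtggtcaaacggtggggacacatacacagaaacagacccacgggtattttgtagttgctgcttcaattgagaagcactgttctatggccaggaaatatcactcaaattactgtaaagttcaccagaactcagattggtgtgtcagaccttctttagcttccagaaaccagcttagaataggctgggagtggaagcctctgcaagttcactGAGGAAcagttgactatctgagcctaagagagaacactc
Ltf, chr9:111019042-111019270, plus strand: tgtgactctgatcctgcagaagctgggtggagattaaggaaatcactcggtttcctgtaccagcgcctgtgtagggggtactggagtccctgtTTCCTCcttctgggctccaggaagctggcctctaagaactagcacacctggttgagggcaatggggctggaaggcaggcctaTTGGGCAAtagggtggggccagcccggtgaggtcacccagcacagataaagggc
Promoters were matched for 18 of 22 genes looked up (the 20 genes with Ptprc and Adgre1). Of the 18, 12 held GAGGAA on either strand within 250 bases of a start, against 25.9% of 27025 genes, and 4 held TTGCNNAA, against 10.8%. The Stfa genes are near copies of each other, so these are not counts of independent genes, and a match of letters is a description, not a binding site.

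The immune cells fell into 11 sub-clusters, formed on genes listed in every group and named only from markers. Sub-clusters 0, 1, 3 and 5 were macrophage-like and held 160 cells, with 24, 39, 36, 25 and 36 cells in stage order. Sub-cluster 3 held 34 cells, all from the first 2 stages and all called in S or G2M phase. It was led by Lepr, the leptin receptor (494 CPM against 76.5 in the other immune cells), with the heat shock gene Hspa1a at 621 CPM against 172. Sub-cluster 5 held 25 cells, 20 of them of E11.5, and was led by Hspa1b, with the scavenger receptor Cd36, the hyaluronan receptor Lyve1 and the chemokine Ccl9 among its leading genes. Sub-cluster 0 held 51 cells, 24 of E12.5 and 18 of E13.5, and was led by the chemokines Cxcl10 (194 CPM against 35.7), Cxcl1 and Cxcl16. Sub-cluster 1 held 50 cells, 34 of them of E16.5, and was led by the secreted phosphoprotein Spp1 (824 CPM against 41.8). C1qa stood at 509, 628, 1674 and 2361 CPM in sub-clusters 3, 5, 0 and 1, which were themselves formed on expression. Mrc1, the mannose receptor, was lowest in sub-cluster 3, at 266 CPM, and 542 in sub-cluster 5. A clustering on all genes matched these sub-clusters in part (adjusted Rand index 0.598, where 1 is a full match). In it 1 cluster held all 51 cells of sub-cluster 0 with 25 of sub-cluster 1, and another 29 of sub-cluster 3 with 23 of sub-cluster 5. Yet another held 24 cells of E16.5 XY only, all of them in sub-cluster 1 here. E16.5 XY listed 23445 genes and E16.5 XX 20541, and the part of this in that cluster was not tested.

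Sub-clusters 2, 4 and 10 were not assigned to a lineage. Sub-cluster 2, of 43 cells, was left unnamed and was led by Ctla2a, found in 34 cells, and 10, 10 and 17 of its cells came from the first 3 stages. Genes of megakaryocytes came from a minority of its cells, the integrins Itgb3 and Itga2b (531 and 216 CPM) from 17 and 16 cells and the platelet factor Pf4 (6003 CPM) from 11 (25.6%). Pf4 was found in more of the macrophage-like cells (76.2%), at 677 CPM, and in 1.24% of the cells outside the immune group. Gata2, a transcription factor of blood progenitors, was found in 53.5% of its cells, 3.12% of macrophage-like cells and 19.0% of the cells outside the immune group, with median depths of 24304, 18147 and 16541 UMIs. For Kit, a receptor of the same progenitors and of germ cells, the shares were 60.5%, 1.88% and 16.4%. Macrophage-like cells held 25.6% of all Pf4 UMIs, so that Pf4 was not specific to one sub-cluster. Sub-cluster 4, of 31 cells (5, 12, 4, 9 and 1 in stage order), was also unnamed. It was led by the glutamate receptor gene Gria3 and the granule protease Prtn3 (387 CPM against 81.0). Sub-cluster 10, of 14 cells, was also left unnamed. It held 0, 4, 0, 6 and 4 cells in stage order, 12 of the 14 were XY, and the 4 of E11.5 came from E11.5 XY replicate 1. Gata3 and Lck, which lymphoid cells express, were each found in 6 of its cells (42.9%). The shares were 1.25% and 1.88% in macrophage-like cells and 9.48% and 7.65% outside the immune group, at a median depth of 18184.5 UMIs in sub-cluster 10. Hdc, which makes histamine, was found in 6 of its cells, in 1.25% of macrophage-like cells and in 4.67% outside, and 1 cell held Hdc together with Gata3 or Lck. Kit was found in 11 of the 14 cells and Gata2 in 6, and 5 held Hdc together with Gata2. Of 10 B cell genes 5 had a UMI in immune cells. Ighm, the heavy chain of IgM, stood at 172 CPM and was found in 212 immune cells (66%, and 2.77% of the others), and Cd79b, of the B cell receptor, at 33.8 CPM in 134 (41.7% and 1.56%). In macrophage-like cells from E12.5 on the mean of Ighm over 11 libraries was 364 CPM, so that Ighm alone does not mark B cells here. Pax5 and Ms4a1 were among the 5 at 0, which in genes not listed in a group is no measurement.

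A neutrophil-like and a monocyte-like sub-cluster came almost wholly from E16.5. Sub-cluster 6, neutrophil-like, held 20 cells, 19 of them of E16.5. Of these, 14 came from E16.5 XX replicate 2 and none from E16.5 XX replicate 1, so its sexes are not compared here. It was led by Pglyrp1, a peptidoglycan recognition protein (3772 CPM against 2.85), and Anxa1 (8031 CPM against 25.5). S100a8 and S100a9, which form calprotectin and were listed in 3 groups, made up 26.8% of its UMIs. Sub-cluster 8, monocyte-like, held 18 cells, 15 of them of E16.5 XY, from both libraries, and 1 of E16.5 XX. It was led by Ly6c1 (858 CPM against 0.406), held the lysozyme gene Lyz2 at 12807 CPM, and 15 of its cells held Ccr2, a receptor that leads monocytes out of the marrow and was listed only in E16.5 XY.

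**Figure D1:**
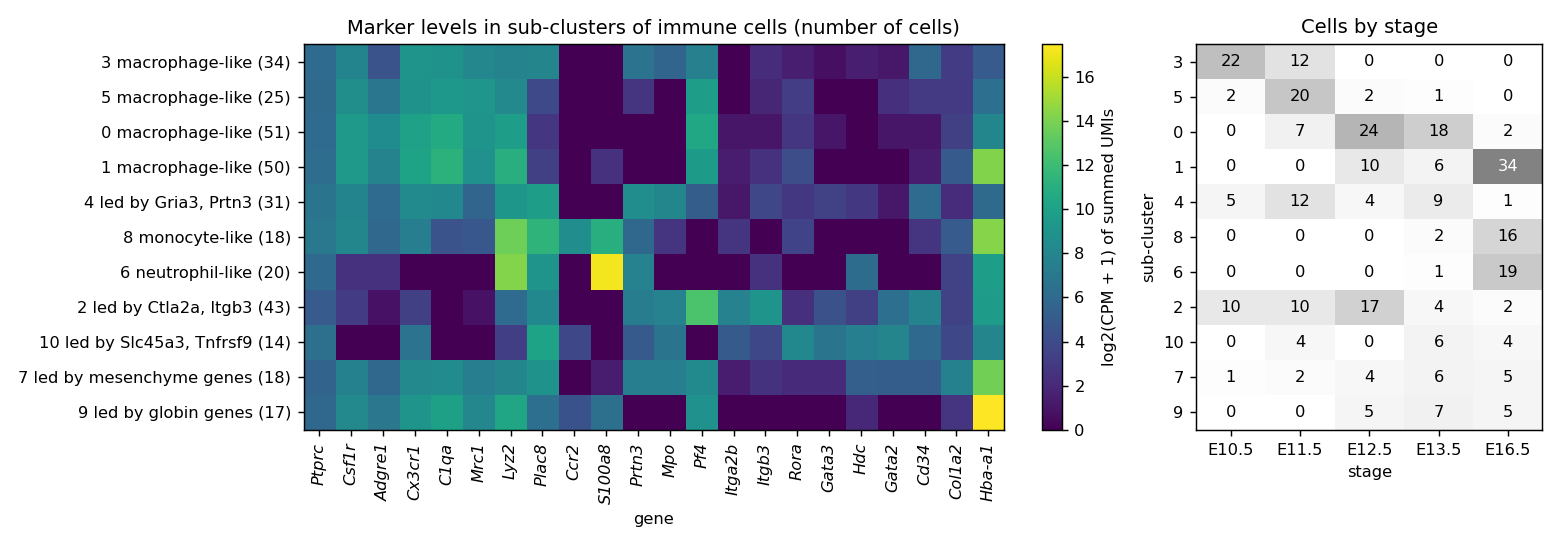
Left, log2(CPM + 1) of 22 marker genes (columns) in the summed UMIs of each sub-cluster of immune cells (rows, with the number of cells). Right, the number of cells of each sub-cluster at each stage, with 22 of the 34 cells of sub-cluster 3 at E10.5 and 34 of the 50 cells of sub-cluster 1 at E16.5. A gene not listed in a group stands at 0 there.

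The immune share of a library was 0.248% ± 0.109 at E10.5 (mean ± SD, n = 4 libraries, as for each stage). It was 0.382% ± 0.0999 at E11.5. E12.5 libraries had 0.314% ± 0.0573 and E13.5 libraries 0.229% ± 0.0418. The highest mean was that of E16.5, with 0.518% ± 0.0352. The 4 libraries of E16.5, at 0.488 to 0.550%, lay above all earlier ones but E11.5 XY replicate 2, which was at 0.512%. Over the 20 libraries the share rose with days of development by Pearson's r (0.588, permutation p = 0.00647) but not by Spearman's rho (0.307, permutation p = 0.190). Without E16.5, the stage farthest from the median, r was -0.151 (permutation p = 0.581), so the relation rests on those 4 libraries. With erythrocytes and germ cells left out of the denominator r was 0.696 (permutation p = 0.00053) and rho 0.558 (permutation p = 0.0124). Over the 12 libraries from E12.5 on, r was 0.819 (permutation p = 0.0024) and rho 0.473 (permutation p = 0.132). The 95% Clopper-Pearson interval of a single library, which covers counting error only, was wide, from 0.0225 to 0.318% for E10.5 XY replicate 1 with 3 cells.

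By the authors' phase calls, 36 of 40 immune cells were in S or G2M at E10.5 and 49 of 67 at E11.5 (73.1%). Later the share was 47.0% (31 of 66 cells), then 43.3% (26 of 60), and at E16.5 it was 38.6% (34 of 88). The share of a library fell with days (r = -0.637, permutation p = 0.00363, and rho = -0.681, permutation p = 0.00189, 19 libraries). Adjusted over the 2 correlations with stage, of share and of phase, both Pearson p-values were 0.00647. These permutations took each library as independent, although some XX and XY libraries of a stage share a date. The fall was also found in the macrophage-like cells (r = -0.593, permutation p = 0.0164, 16 libraries) and without E16.5 (r = -0.790, permutation p = 0.00078). Over the 12 libraries of the last 3 stages r was -0.00168 (permutation p = 0.996). Depth fell over the same stages, and its part in the phase calls was not tested. After thinning each cell to 3000 UMIs, the share with a UMI of Top2a or Mki67, genes of dividing cells, gave r = -0.285 (permutation p = 0.237). In the other cells of the 20 libraries the share in S or G2M fell too (r = -0.718, permutation p = 0.00041), from 70.9% to 38.5% (means of 4 libraries).

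**Figure D2:**
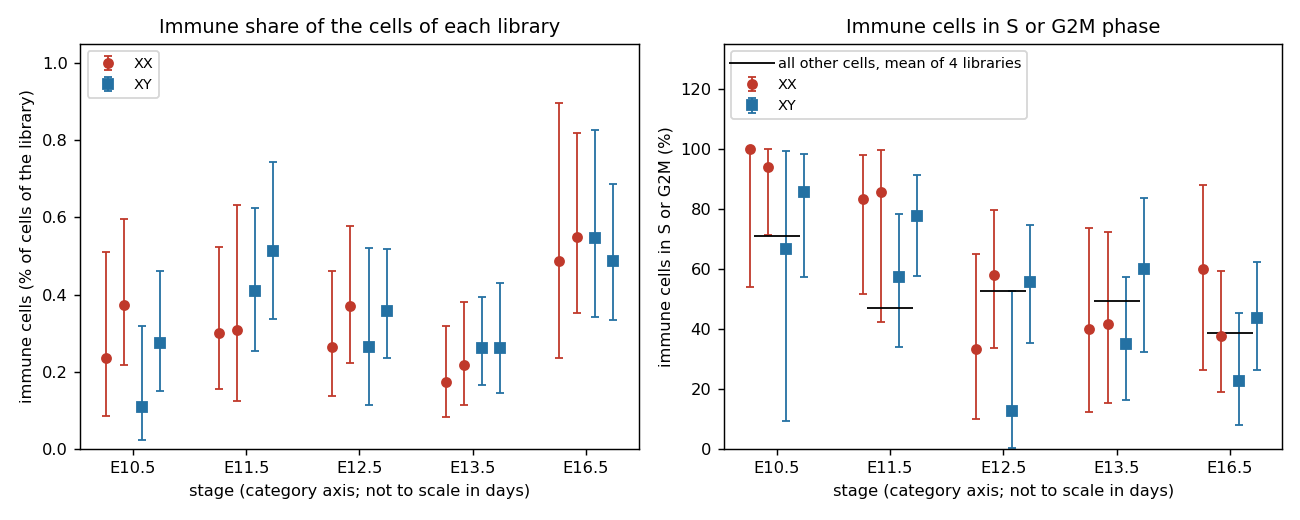
Left, immune cells as a percentage of the cells of each library. Right, the percentage of immune cells in S or G2M phase in each library. Points are libraries (circles XX, squares XY), bars are 95% Clopper-Pearson intervals, stages are spaced evenly and not in days, and black lines on the right are the mean of all other cells over 4 libraries. The libraries of E16.5 sit at 0.488 to 0.550% on the left, and on the right the immune cells go from 36 of 40 at E10.5 to 34 of 88 at E16.5.

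Expression over stage was then followed in the UMIs of the immune cells summed in each of 19 libraries. E10.5 XY replicate 1, with 3 cells, was left out. The slope is the log2 change of CPM per day, with sex in the model, tested with edgeR. Of 4759 genes tested, 681 rose (14.3%) and 590 fell (12.4%). Of the 4684 among them that were listed in every group, 664 rose and 587 fell, and the median slope was 0.01. In sums of cells, more cells of a type and more RNA per cell cannot be told apart, so the fit was repeated on the macrophage-like cells alone (16 libraries). That class is not of one make-up either, since 22 of its 24 cells of E10.5 were in sub-cluster 3 and 34 of its 36 cells of E16.5 in sub-cluster 1, so that a change within cells and a change of sub-cluster cannot be told apart there. In it 315 of 2766 genes listed in every group rose (11.4%) and 345 fell, and of all 2803 genes tested 346 fell (12.3%). Of the 1251 listed genes called in all immune cells, 882 were tested in macrophage-like cells and 538 were called there too. These were 43.0% of the calls in all immune cells and 81.5% of those in macrophage-like cells, and as both fits sum the same macrophage-like cells, the overlap is no separate support. The macrophage-like calls were 181 to 378 rises and 192 to 377 falls when 1 library was left out, with 181 rises without E10.5 XY replicate 2 and 192 falls without E10.5 XX replicate 2, the only 2 libraries of that stage in the fit.

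Lysosomal genes rose in 16 of 19 tested, with a median slope of 0.25, and in 15 of 19 in macrophage-like cells, with a median of 0.24. The latter count was 7 without either library of E10.5. Over all listed genes 664 of 4684 rose, and 315 of 2766 in macrophage-like cells. Ctsd, the protease cathepsin D, stood at 240, 334 and 609 CPM (lowest, median and highest of the 7 libraries of E10.5 and E11.5, called early here) and at 440, 1223 and 3332 in the 12 later libraries. The ranges overlapped in part (slope 0.41 ± 0.09, adjusted p = 0.0021), and the slope was 0.43 ± 0.11 in macrophage-like cells (adjusted p = 0.00989). Ctss, cathepsin S, had a slope of 0.46 ± 0.08 and Lamp1, of the lysosomal membrane, one of 0.37 ± 0.05 (adjusted p = 0.00068 and 0.00012). Ctsc and Ctsz, at -0.01 and 0.03, did not pass.

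Genes for taking up dying cells rose in 7 of 13, with a median slope of 0.22, and in 7 of 10 in macrophage-like cells. The share of all listed genes that rose was 664 of 4684, and 315 of 2766 in macrophage-like cells. Axl, a receptor that binds dying cells through a bridging ligand, stood at 4.28, 9.44 and 18.5 CPM early and 32.9, 76.2 and 133 later without overlap (slope 0.50 ± 0.12, adjusted p = 0.00408). Its ligand Gas6 rose too (slope 0.33 ± 0.08, adjusted p = 0.00484). Trem2, a lipid receptor, went from a median of 83.6 CPM to 322 (slope 0.46 ± 0.11, adjusted p = 0.00365). Mertk, related to Axl, had a slope of 0.21 and Mrc1 one of 0.06, and neither passed. Of lipid genes 5 of 9 rose, and 4 of 9 in macrophage-like cells (2 without either library of E10.5). The lipid carrier Apoe was at 635, 1100 and 3084 CPM early and at 1669, 8085 and 15799 later, with overlap (slope 0.50 ± 0.12, adjusted p = 0.00559).

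Macrophage markers rose in 9 of 14, with a median slope of 0.21, and in 9 of 13 in macrophage-like cells, a count of 4 without either library of E10.5. Among all listed genes 664 of 4684 rose, and 315 of 2766 in macrophage-like cells. C1qa stood at 224, 406 and 466 CPM early and at 387, 1082 and 1808 later, with overlap (slope 0.31 ± 0.09, adjusted p = 0.017). By stage it was at 432 ± 30.5 CPM at E10.5 (mean ± SD, n = 3) and 309 ± 74.6 at E11.5 (n = 4), then at 1138 ± 450, 1109 ± 525 and 1140 ± 422 (n = 4 each). The difference thus lay between E11.5 and E12.5. C1qc rose (slope 0.24 ± 0.09, adjusted p = 0.0436), while C1qb, at 620, 749 and 1064 and then 447, 1388 and 2830 CPM, did not pass (slope 0.13 ± 0.08, adjusted p = 0.223). Csf1r rose (slope 0.19 ± 0.06, adjusted p = 0.0319), as did Cx3cr1 (slope 0.20 ± 0.05, adjusted p = 0.00756), and Spi1, with a slope of 0.05 ± 0.06, did not pass.

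**Figure D3:**
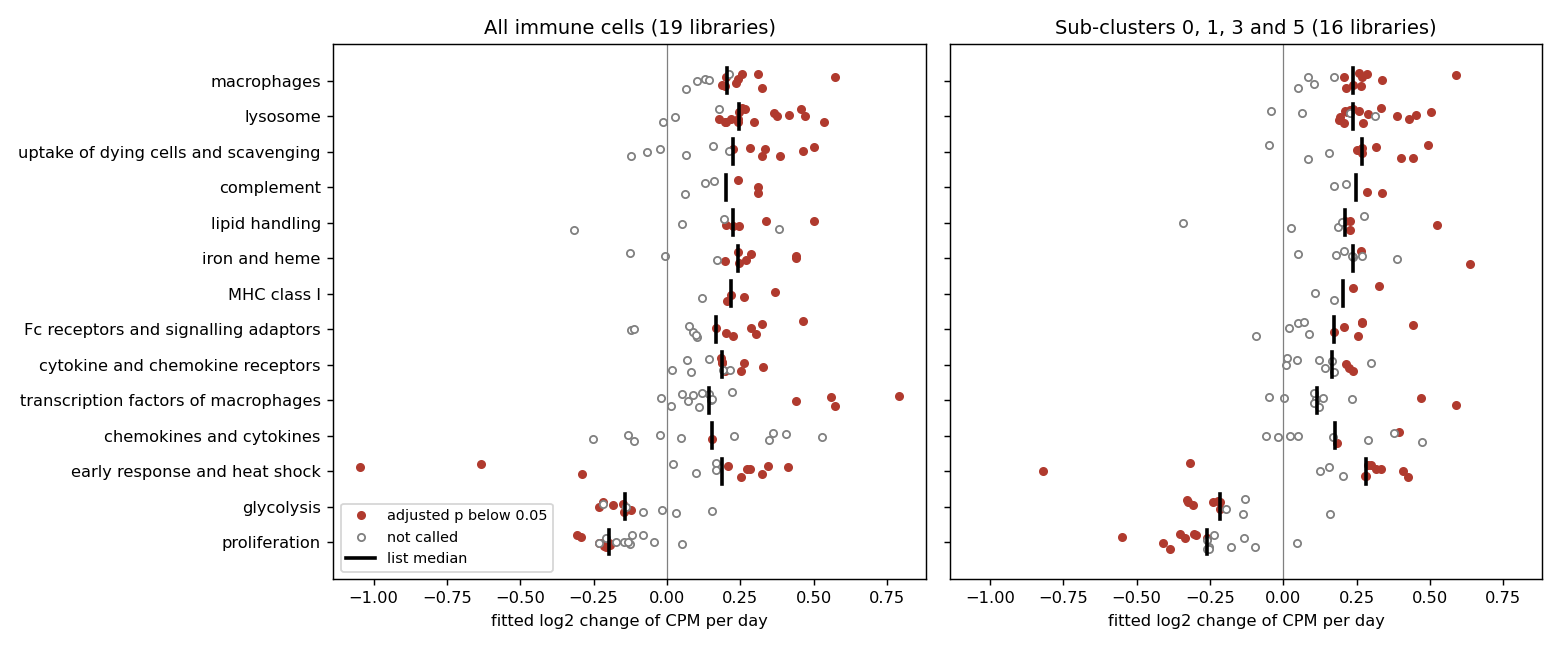
Slope of each gene (fitted log2 change of CPM per day) by gene list, for all immune cells in 19 libraries (left) and for macrophage-like cells in 16 libraries (right). Red points had an adjusted p below 0.05, white points did not, and the bar is the median of the list. Lysosomal genes lie mostly to the right of 0, with medians of 0.25 and 0.24, and proliferation genes to the left, with medians of -0.20 and -0.26.

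Of the transcription factors of macrophages 4 of 15 rose, and 2 of 10 in macrophage-like cells. The latter count was 4 without E16.5 XX replicate 2 or E16.5 XY replicate 2, and 1 without E10.5 XX replicate 2, either library of E11.5 XY or E12.5 XY replicate 2. Of all listed genes 664 of 4684 rose in the first fit and 315 of 2766 (11.4%) in macrophage-like cells. Id2, an inhibitor of helix-loop-helix factors, was at 15.2, 52.5 and 103 CPM early and at 146, 362 and 585 later, without overlap (slope 0.56 ± 0.12, adjusted p = 0.00244). Cebpa and Cebpb, factors of granulocytes and monocytes, rose in all immune cells, Cebpb to 265 ± 292 CPM at E16.5 (n = 4), and did not pass the filter on low counts in the macrophage-like cells. Irf8, Runx1 and Maf, with slopes of 0.15, 0.12 and 0.14, did not pass the test.

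Receptors for cytokines and chemokines rose in 7 of 13, with a median slope of 0.19, and in 3 of 11 in macrophage-like cells, with a median of 0.17. The count of 7 was 2 without either library of E10.5 XX, 3 without E10.5 XY replicate 2 or E16.5 XY replicate 2, and 4 without any library of E11.5 or E16.5 XY replicate 1. The count of 3 was 1 without either library of E10.5 and 6 without E12.5 XY replicate 2. Fc receptors and signalling adaptors rose in 7 of 13, and in 6 of 11 in macrophage-like cells, among them Tyrobp, the adaptor of Trem2 (slope 0.33 ± 0.05, adjusted p = 0.000284). Of 14 growth and vascular factors 4 were tested, and all 4 rose, or 2 without E16.5 XY replicate 1. With no filter on low counts 5 of 12 listed in every group rose. In macrophage-like cells 3 of 3 rose (1 without either library of E10.5). Igf1, insulin-like growth factor, went from a median of 18.5 CPM to 133 (slope 0.48 ± 0.14, adjusted p = 0.0186), and Spp1 from 2.70 to 107 (slope 0.92 ± 0.28, adjusted p = 0.0175). Spp1 was found in 59 immune cells (18.4%, and 6.6% of the others), and its later libraries ran from 6.67 to 771 CPM. Of 11 chemokines and cytokines 1 rose, Tgfb1 (slope 0.15 ± 0.05, adjusted p = 0.0357). The count was 0 without E10.5 XX replicate 1, E10.5 XY replicate 2, E11.5 XX or XY replicate 2 or either library of E16.5 XX, and 2 without E12.5 XX replicate 2 or either library of E12.5 XY. In macrophage-like cells 2 of 10 rose, with 0 or 1 without all but 2 of the 16 libraries in turn (the exceptions being E12.5 and E16.5 XY replicate 2). Of all listed genes 664 of 4684 and 315 of 2766 rose in these 2 fits. Ccl3, Ccl4 and Ccl2 had slopes of -0.13, 0.05 and -0.02 and did not pass. Of 12 genes typical of microglia, the macrophages of the brain, 4 passed the filter on low counts and were listed in every group. All 4 rose, also in macrophage-like cells (4 of 4), among them Cx3cr1 and Olfml3 (slope 0.54 ± 0.12, adjusted p = 0.00303). With no filter on low counts 7 were listed in every group, of which 4 rose and 1 had a slope below 0.

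Genes for iron and heme rose in 7 of 10, with a median slope of 0.24. In macrophage-like cells the median was 0.24, with 9 of 9 slopes above 0 and 7 with an unadjusted p below 0.05, and 2 passed, Hmox1, which breaks down heme (slope 0.64 ± 0.17, adjusted p = 0.0106), and Blvrb. The 7 rises were 3 without E10.5 XY replicate 2 and 4 without either library of E10.5 XX. The 2 were 5 without E12.5 XX replicate 1 or E12.5 XY replicate 2, 4 without either library of E16.5 XY, and 1 without E16.5 XX replicate 2, E11.5 XX replicate 1, or either library of E10.5 or of E11.5 XY. Transferrin, Trf, had a median of 49.4 CPM early and 363 later (slope 0.44 ± 0.12, adjusted p = 0.0087) and did not pass in macrophage-like cells (slope 0.39 ± 0.16, adjusted p = 0.077). MHC class I genes rose in 4 of 5, and in 2 of 4 in macrophage-like cells, with slopes in all immune cells of 0.37 ± 0.05 for H2-D1 and 0.26 ± 0.04 for B2m. For all listed genes the rises were 664 of 4684, and 315 of 2766 in macrophage-like cells. Lyz2 rose from a median of 217 CPM to 914, with 18437 in the highest library (slope 0.92 ± 0.10, adjusted p = 1.4e-05). In macrophage-like cells, which leave out the neutrophil-like and monocyte-like cells, its slope was 0.48 ± 0.13 (adjusted p = 0.015).

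Glycolytic genes fell in 6 of 12, with a median slope of -0.14, and in 7 of 11 in macrophage-like cells, with a median of -0.22. The count of 6 was 3 without any of the 3 libraries of E10.5. Over all listed genes 587 of 4684 fell, and 345 of 2766 in macrophage-like cells. Gapdh stood at 2514, 2804 and 3062 CPM early and at 1082, 1301 and 2062 later, without overlap (slope -0.14 ± 0.04, adjusted p = 0.00863). Ldha, which makes lactate, fell from a median of 1455 to 509 CPM (slope -0.23 ± 0.05, adjusted p = 0.00406). Aldoa did not overlap either, at 739, 1038 and 1298 and then 377, 537 and 703 CPM.

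Genes of proliferation fell in 9 of 19, with a median slope of -0.20, and in 8 of 17 in macrophage-like cells. The count of 9 was 4 without E10.5 XX replicate 2, E10.5 XY replicate 2 or E16.5 XY replicate 1, and also 4 without sub-clusters 7 and 9, which were led by mesenchyme and red cell genes. Without those 3 libraries in turn the count of 8 was 3, 5 and 5. For all listed genes the falls were 587 of 4684, and 345 of 2766 in macrophage-like cells. Mcm5, part of the helicase that opens DNA for replication, was at 103, 132 and 137 CPM early and at 28.3, 59.8 and 131 later (slope -0.22 ± 0.05, adjusted p = 0.00402). Of the later libraries, E12.5 XX replicate 2 and E13.5 XY replicate 2 lay among the earlier ones. Mcm3, another part, did not overlap, at 89.9, 97.2 and 132 and then 6.73, 51.2 and 88.9 CPM. Top2a and Mki67 had slopes of -0.08 and -0.04 and did not pass.

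Lepr fell most steeply among called genes of at least 20 CPM. It stood at 34.2, 144 and 461 CPM early and at 0, 4.86 and 404 later (slope -1.25 ± 0.25, adjusted p = 0.00115), with -1.21 ± 0.25 in macrophage-like cells. The highest later value was that of E12.5 XY replicate 1, with 8 immune cells, and the next was 66.7 CPM. Lepr was found in 54 immune cells (16.8%) and in 5.17% of the others. Of the early response and heat shock genes 7 rose and 3 fell among 14, with 4 rises without E10.5 XY replicate 2 and 1 fall without E10.5 XX replicate 2. In macrophage-like cells 8 rose and 2 fell among 13, with 5 rises without either library of E10.5 or without E16.5 XX replicate 1. The heat shock genes Hspa1a, Hspa1b and Hsp90aa1 fell by 0.64, by 1.04 and by 0.29 per day on the log2 scale. Egr1, Junb and Fos had slopes of 0.41 ± 0.09, 0.34 ± 0.10 and 0.32 ± 0.10. Such genes are known to respond to handling of tissue, and stage and library date cannot be told apart. Of blood progenitor genes 2 of 7 fell, Meis1 and Cd34, the latter from a median of 93.5 CPM to 12.1 (slope -0.58 ± 0.15, adjusted p = 0.00578). The count was 1 without E10.5 XY replicate 2, E16.5 XX replicate 2 or either library of E16.5 XY, and also 1 without sub-clusters 7 and 9. In macrophage-like cells 1 of these genes was tested, and it did not pass. Of all listed genes 664 of 4684 rose and 587 fell in all immune cells. In macrophage-like cells 315 of 2766 rose and 345 fell.

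**Figure D4:**
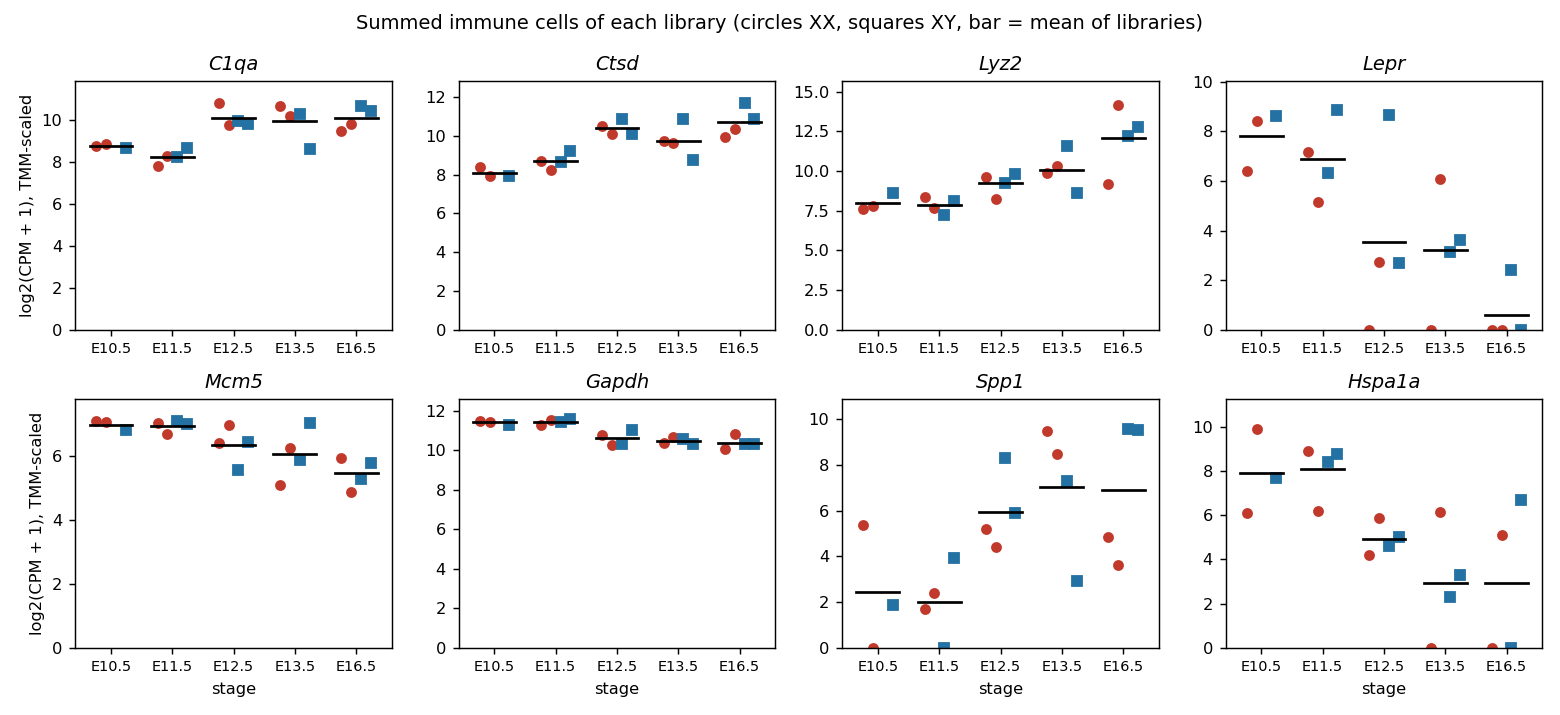
Level of 8 genes in the summed immune cells of each library, as log2(CPM + 1) after TMM scaling, against stage (spaced evenly, not in days). Circles are XX and squares XY libraries, and bars are means of the libraries of a stage. Gapdh goes from 2514, 2804 and 3062 CPM before E12.5 to 1082, 1301 and 2062 from E12.5 on, and the squares of Lepr and Spp1 at E12.5 include the 404 and 316 CPM of E12.5 XY replicate 1.

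Over the 12 libraries of gonads without mesonephros few slopes passed. Of 3688 listed genes tested, 7 rose (0.19%) and 3 fell (0.0813%) with edgeR. Of all 3729 genes tested 567 had an unadjusted p below 0.05, and DESeq2 called 67 rises and 11 falls. Pglyrp1 (slope 1.66 ± 0.31, adjusted p = 0.0327) and Anxa1 (slope 1.62 ± 0.32, adjusted p = 0.0422), which led the neutrophil-like sub-cluster, rose, as did Cebpb (adjusted p = 0.0327) and Jund (slope 0.77 ± 0.14, adjusted p = 0.0339). Without the cells of highest doublet score their slopes were 1.67 (adjusted p = 0.067), 1.58 (adjusted p = 0.067), 0.95 (adjusted p = 0.067) and 0.79 (adjusted p = 0.0551), and none of the 4 passed. Hmga2 was then below the filter on low counts. Of the 20 neutrophil-like cells 19 were of E16.5, with 14 from E16.5 XX replicate 2 and none from E16.5 XX replicate 1. The slopes of Pglyrp1 and Anxa1 therefore cannot be told apart from where those cells were captured. Hmga2, a chromatin protein of growing embryonic tissue, fell by 1.21 per day and Hbb-y, an embryonic globin, by 1.24. Without E16.5 XX replicate 1 the count over all genes went from 9 rises and 3 falls to 84 and 9, without E16.5 XY replicate 1 it went to 4 rises, and without E13.5 XY replicate 1 or E13.5 XX replicate 1 to 18 or 16. Without E12.5 XY replicate 1 there were 5 falls. None of the 19 lysosomal genes was called by edgeR or DESeq2, 3 had an unadjusted p below 0.05, and their median slope was 0.10. None of the 14 macrophage markers was called by either tool, 2 had an unadjusted p below 0.05, and their median slope was 0.03. Glycolytic genes had a median slope of 0.06 here, above 0 for 8 of 11, where over all stages it was below 0. The median was -0.13 for 16 genes of proliferation and -0.02 for 9 of iron and heme. None of these 3 lists held a call by either tool, and 2, 4 and 0 of their genes had an unadjusted p below 0.05. In macrophage-like cells alone (11 of these libraries) the glycolytic median was -0.09, with 2 of 10 slopes above 0. In that fit 12 of 2094 listed genes rose, 4 of them erythroid genes, and 3 fell. Jund was among the rises there (slope 0.87 ± 0.13, adjusted p = 0.00236).

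The slope of the immune cells was also tested against that of all other cells of the same libraries, as an interaction. Of 18055 listed genes, 220 had a higher slope in immune cells (1.22%) and 366 a lower one (2.03%), around a median difference of -0.03. These counts include genes that entered through the other cells and were too low in immune cells for the fits above, and none of those is named in this paragraph. With DESeq2 292 listed genes were higher and 271 lower, so that which direction was commoner turned, and over all genes the median difference was 0.02, against -0.04 with edgeR. Lysosomal genes were higher in 5 of 19. The difference in slope was 0.36 ± 0.06 for Grn (progranulin, adjusted p = 0.000961), 0.31 ± 0.08 for Ctsd and 0.31 ± 0.05 for the cholesterol carrier Npc2. Of 12 lipid genes Apoe (0.33 ± 0.08), Fabp5 and Npc2 were higher, and of the growth and vascular factors also tested in immune cells alone, Spp1 (1.07 ± 0.21) and Nrp1 (0.41 ± 0.11). Of 10 genes for iron and heme Trf (0.56 ± 0.10) and Hmox1 (0.41 ± 0.11) were higher. Of 14 macrophage markers 1 was higher and 1, Mrc1, lower (-0.54 ± 0.12). Cd34 (-1.18 ± 0.13), Lepr (-1.18 ± 0.20) and Hspa1b (-1.05 ± 0.16) were lower. For C1qa, Csf1r, Egr1, Fos, Junb, Gapdh and Mcm5 the difference did not pass. Some macrophage genes were near the floor in the other cells, such as C1qb at 0.651 CPM and Cx3cr1 at 0.32. For such genes the slope in other cells rests on few UMIs, whose source was not tested. The difference then cannot tell whether a change is shared with other cells. The count of higher slopes over all genes was 241, and 150 without E10.5 XX replicate 2 or 156 without E10.5 XY replicate 2. The count of lower slopes was 416, and 219, 218 or 243 without E10.5 XX replicate 2, E10.5 XY replicate 2 or E16.5 XX replicate 2.

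Genes of other cell types were found in the immune cells. Globin made up more than 5% of the UMIs in 24 cells from 11 libraries, with a median of 51.9%, and these cells numbered 0, 1, 4, 7 and 12 in stage order. Just inside the limit the share was 5.60% and just outside 4.68%. Of the 24 cells, 20 held Csf1r, 20 C1qb and 21 the erythroid heme enzyme Alas2. The 10 erythroid genes summed to 42.4, 299 and 1445 CPM (lowest, median and highest) in the early libraries and to 736, 66509 and 152583 in the later ones, against 20216 in the other cells. Hbb-bs, an adult globin, rose in the macrophage-like cells (slope 2.12 ± 0.11, adjusted p = 3.08e-10), although sub-cluster 9, led by globin and other red cell genes, was not among them. Sub-cluster 7, of 18 cells, held the collagen gene Col1a2 at 208 CPM and Csf1r at 207. The 7 mesenchyme genes summed to 32.0 to 305 CPM early and to 8.92 to 529 later, against 1014 in the other cells. Without sub-clusters 7 and 9, 530 listed genes rose over the stages and 484 fell. The part of RNA from other cells in the slopes was not tested further.

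Between XX and XY few differences passed the test. The immune share was 0.328% ± 0.120 in XX and 0.348% ± 0.139 in XY (n = 10 libraries each), a difference of -0.0205 percentage points (exact permutation p = 0.557, two-sided, over 7776 assignments within stages). Of 5132 genes tested with edgeR, 1 was higher in XX (0.0195%) and 3 in XY (0.0585%), 185 had an unadjusted p below 0.05, and DESeq2 called 2 and 8. Xist, the RNA that silences an X chromosome, was higher in XX by 7.77 ± 0.66 on the log2 scale, and the Y-linked Eif2s3y and Ddx3y, listed in 7 groups, were higher in XY. Defb19, a gene of Sertoli cells, was the other gene higher in XY (-4.32 ± 0.79 for XX over XY, adjusted p = 0.0362). The 7 supporting cell genes summed to 7.99 to 338 CPM in the later libraries, against 477 in the other cells, and their part in Defb19 was not tested. With 1 library left out, Defb19 was called without any of the 3 libraries of E10.5, without E11.5 XY replicate 1, either library of E12.5 XY or E13.5 XY replicate 2, and was not called without any of the other 12 libraries (adjusted p from 0.0035 to 0.164). The difference itself ran from -5.25 to -3.95 over these fits. It was -4.29 (adjusted p = 0.0831) with at least 10 immune cells, -3.41 (adjusted p = 0.443) in macrophage-like cells and -3.81 (adjusted p = 0.552) with library date as a block, none of which passed, and without sub-clusters 7 and 9 it was below the filter on low counts. The count in XY was 7 without E10.5 XY replicate 2 and 5 without E10.5 XX replicate 1 or 2. The count in XX was 2 without E16.5 XX replicate 1. With library date as a block, over the 12 libraries of shared dates, 10 genes were higher in XX and 6 in XY, of which Xist, Pglyrp1, Spp1 and Myl9 are listed in every group. The 9 genes other than Xist that were higher in XX were Mmp9, Cd177, Ifitm6, Lcn2, Ngp, Wfdc21, Stfa2, Ltf and Pglyrp1, most of them known from neutrophils, and E16.5 XX replicate 2, with its 14 neutrophil-like cells, held 99.6% of their UMIs in XX immune cells. Spp1 was at -3.19 ± 0.55 for XX over XY (adjusted p = 0.041) and Pglyrp1 at 2.59 ± 0.45 (adjusted p = 0.043), with 3196 CPM in E16.5 XX replicate 2 and 0 in E16.5 XX replicate 1. At E13.5 sex and date cannot be told apart.

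Ligands of macrophage receptors were mapped over the 19 cell types, as levels of summed cells with no test. Cells of all stages were pooled and the types differ in stage, so that type and stage cannot be told apart in these levels. Csf1, a growth factor that binds Csf1r, was highest in invading mesonephric cells at 6.81 CPM, with 5.28 in immune cells. Il34, the other ligand of Csf1r, was highest in early supporting-like cells and had no UMI in immune cells. Cx3cl1, the ligand of Cx3cr1, was highest in Sertoli cells at 31.1 CPM, and the chemokine Cxcl12 in late interstitial progenitors at 805 CPM. Gas6 was highest in late supporting-like cells at 345 CPM, with 152 in immune cells. Ccl2 and Tgfb1 were highest in the immune cells themselves, at 857 and 131 CPM, and next in perivascular cells at 12.7 and endothelium at 109 CPM.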

How the data were processed

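UMI counts per gene and cell were deposited by the authors in 1 matrix. They came from Cell Ranger 2.1 and GRCm38 with a GFP sequence added, and the authors picked cells from the density of UMIs per barcode, with no filter on quality or doublets. The deposited cell table gave library, cluster, cell type and phase. Replicates were numbered by the library dates in the labels. Doublet scores were computed anew in each library with the Scrublet method in scanpy 1.11.5 (expected rate 5%), which called 0.254 to 5.27% of cells.

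UMIs of immune cells were summed in each library with at least 5 immune cells (130520 to 913813 UMIs) and tested with the edgeR 4.0.16 quasi-likelihood test (two-sided) after filterByExpr and TMM scaling. Adjusted p-values are Benjamini-Hochberg values across every gene in a fit, with a threshold of 0.05, and DESeq2 1.42.0 was an alternative. Sub-clusters came from 1000 variable genes, 20 components, 15 neighbors and Leiden resolution 1. CPM are TMM-scaled for libraries and plain for pooled cells. The tests were checked on simulated counts. Per the study's methods, the 2 libraries of a stage and sex are biological replicates, and the labels date them differently.

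Named genes are those of the marker and gene lists, the 6 largest called rises and falls of at least 20 CPM, and the 20 highest ratios to other cells. Other genes, such as those leading sub-clusters, were chosen after their values were seen. The members and lists were chosen with earlier results of these data known. XX and XY libraries were paired by shared dates in the labels. Over 5390 genes the differences between dates in XX and in XY had a correlation of 0.183 for E11.5, but of -0.0471 for E12.5. Positions came from GENCODE M21 and promoters from RefSeq. Some genes are not reported here.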

Additional observations from a re-analysis of the deposited data

Results flagged for a closer look

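Of 119 sets of 4 libraries of a stage, 11 had a library whose gap to the nearest other exceeded 0.829 of the whole range, where chance gives about 1 in 20. E12.5 XY replicate 1, which held 8 immune cells, stood apart in 3 genes. Its Lepr was 404 CPM (0 to 5.72 in the other libraries of the stage), its Adgre1 644 CPM (154 to 208) and its Spp1 316 CPM (20.0 to 58.5). E13.5 XX replicate 2 stood apart with Lepr at 66.7 CPM (0 to 11.1) and Hspa1a at 71.2 CPM (0 to 8.89). E11.5 XX replicate 2 was low in Ptprc, at 51.4 CPM (74.0 to 77.9), and in Fos, at 210 CPM (330 to 341). C1qa was 1808 CPM in E12.5 XX replicate 1 (863 to 990). Pf4 was 1184 CPM in E13.5 XX replicate 1 (178 to 266). Hba-a1 was 649 CPM in E11.5 XY replicate 1 (15.5 to 71.8). Lepr was 4.23 CPM in E16.5 XY replicate 1 and had no UMI in the other 3 libraries of the stage, so that any level above 0 would have stood apart.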

How the results depend on the processing

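The number of immune cells limits every value, since libraries held 3 to 32 of them. Over all genes, 681 rose and 590 fell with stage. The rises became 1042 with no filter on low counts and 452 without the highest doublet scores, the falls 364 with 2 groups of stages in place of days, and both 322 and 346 in macrophage-like cells and 88 and 50 with 5 cells drawn per library. Slopes changed sign for Ifitm3 in macrophage-like cells (-0.10) and, with 5 cells drawn, for Hexa (-0.014) and Stab1 (-0.029). From E12.5 on, 9 rises and 3 falls became 67 and 11 with DESeq2, 348 and 90 with no filter, 5 falls with at least 10 immune cells and 1 rise without the highest doublet scores. Against other cells, 241 higher slopes became 160 with at least 10 immune cells, and in macrophage-like cells the difference changed sign for Camp (-1.48, listed in 3 groups), Itga2b (0.023), Itgb3 (0.081), Lcn2 (-0.47, listed in 7) and Ly6c1 (-0.53). The 1 and 3 sex differences became 2 and 8 with DESeq2 and also without the highest doublet scores, 54 and 111 with no filter, and 1 in XY with listed genes only. The correlation of share with stage was -0.15 without E16.5, that of cycling was -0.29 for Top2a or Mki67 after thinning and -0.0017 from E12.5 on, and the sex difference in share was 0.0364 percentage points without erythrocytes and germ cells. The cause of these shifts was not tested.

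With 1 library left out, the correlation of share with stage ranged from 0.510 to 0.683 and that of cycling from -0.737 to -0.584. The sex difference in share ranged from -0.0471 to 0.00157. Rises over all stages ranged from 487 to 733 and falls from 426 to 656, in macrophage-like cells from 181 to 378 and from 192 to 377, and from E12.5 on from 4 to 84 and from 3 to 9. Higher slopes than in other cells ranged from 150 to 296 and lower ones from 218 to 544, and sex differences from 1 to 2 in XX and from 2 to 7 in XY. The replicate block by library date, which pairs XX and XY libraries, gave 10 genes higher in XX and 6 in XY, and 9 of the 10 had 99.6% of their UMIs in XX in E16.5 XX replicate 2.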
